A study of Glycine max with 3 samples.

Results

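The miR397 family of vegetable soybean (Glycine max) leaves consisted of 3 distinct mature sequences among the 381 listed, and of 9 of the 898 miRNA and transcript pairs in the degradome table, each of the 9 with a different laccase transcript. Members were taken by name, as every listed sequence named miR397 from either arm of its hairpin and every degradome pair of that family. Small RNA was sequenced from leaves of the cultivar Taiwan 75 at the stage of 1 true leaf, with 1 library from control plants (days at 25 °C, nights at 17 °C) and 1 from plants moved to 4 °C for 24 h. Both had a photoperiod of 12 h at a photon flux density of 600 µmol per square metre and second. In each condition leaves of 3 replicates were pooled before sequencing, so each value has no replicate error and no test between conditions was possible. A single degradome library, which captures the 5′ ends of cut messenger RNAs, was made from chilled and control leaves mixed. Its labelled stage, 10 days after pollination, is not that of the small RNA libraries, though its labelled tissue is also leaf.

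miR397 is a conserved plant miRNA that pairs with messenger RNAs of laccases, secreted multicopper oxidases that oxidise monolignols during lignin formation in cell walls. In Arabidopsis it belongs to the copper miRNAs, a group made when copper is scarce that lowers copper-using proteins other than plastocyanin, and its overexpression there has been tied to cold tolerance. As with other plant miRNAs, the precursor folds into a hairpin from which a duplex is cut, and usually one strand of that duplex, the guide, is kept while the other is lost.

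The 3 mature sequences are shown first because the results below set a 5′ arm of the hairpin against its 3′ arms. They are written 5′ to 3′ with T for U as deposited, and capitals mark the seed, bases 2 to 8.
miR397a: aTTGAGTGcagcgttgatgaa
miR397b-3p: tATTGACGctgcactcaatca
MIR397a-p3: aTCGACACtgcactcaatcatg

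miR397a, of 21 nt, is the 5′ arm and the strand for which the laccases were listed. As listed, it begins with adenine. So did 29.4% of the 381 sequences, which held 5.22% of reads in the control table and 2.79% in the chilled table. In both hairpins that carry miR397a the bases just before it are TC. A start on that T would give another first base and another seed, and whether reads with such a start were present was not tested. In Arabidopsis a 5′ uridine favours loading into Argonaute 1, the main miRNA-guided slicer, and a 5′ adenine favours Argonaute 2 and 4. miR397b-3p, of 21 nt, is a 3′ arm that begins with T, and MIR397a-p3, of 22 nt, is the authors' name for the other 3′ arm. Each of the 3 had a seed of its own, shared with 0 other listed sequences. The 3′ arms overlap over 20 bases, of which 18 are identical. Counted from 1 at the 5′ end of miR397b-3p, with the base of miR397b-3p first, they differ by T4C and G8A, and MIR397a-p3 starts 1 base later. Both differences lie in the seed of miR397b-3p.

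The sequences come from 2 hairpins, shown because their 5′ arms cannot be told apart whereas their 3′ arms can. Capitals mark the mature arms.
chromosome 8 hairpin: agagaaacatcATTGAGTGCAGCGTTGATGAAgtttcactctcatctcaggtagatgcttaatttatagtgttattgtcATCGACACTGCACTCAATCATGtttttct
chromosome 13 hairpin: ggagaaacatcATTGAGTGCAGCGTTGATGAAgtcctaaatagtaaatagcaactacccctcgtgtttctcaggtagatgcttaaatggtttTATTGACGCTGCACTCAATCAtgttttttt

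The first lies at chr8:4645231-4645338 and the second at chr13:35595158-35595279, both on the minus strand, in coordinates counted from 1 of a genome build that the sources used here do not name. RefSeq (assembly Glycine_max_v4.0) names 2 miRNA genes on the same chromosomes, MIR397A of 108 and MIR397B of 122 bases. The deposited coordinates and sequences span the same 108 and 122 bases, while the deposited hairpin length is 108 on chromosome 8 and 120 on chromosome 13. In that annotation each overlaps 0 other genes, so both are intergenic there. In the deposited folds, miR397a had 20 of its 21 bases paired in the chromosome 8 hairpin and 19 of 21 in the chromosome 13 hairpin. MIR397a-p3 had 20 of 22 bases paired and miR397b-3p 18 of 21, and each arm held 1 G and U pair. On chromosome 13 the 2 arms ended in 3′ overhangs of 2 bases each, the geometry that a Dicer cut leaves, and on chromosome 8 the listed arms gave overhangs of 4 and 3 bases. The stretch between the arms was 47 bases on chromosome 8 and 60 on chromosome 13. The authors' folding index MFEI, a folding energy scaled for length and GC content, was 1.2 and 1.1, against a median of 1.0 over the 344 hairpins listed, of which 20.9% reached 1.2 and 36.0% reached 1.1.

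**Figure D1:**
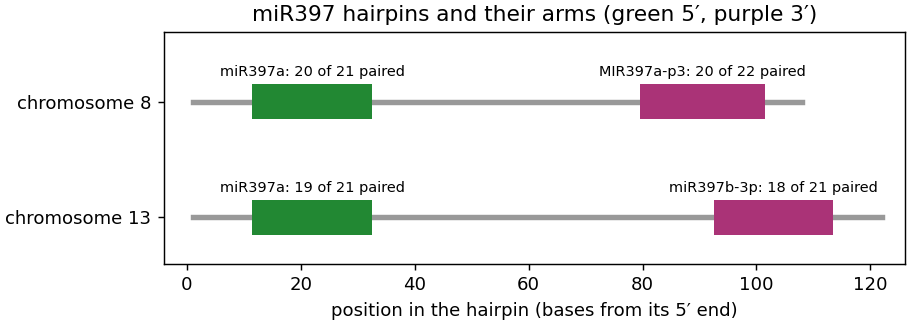
The miR397 hairpins on chromosomes 8 and 13 drawn to scale, with the position in bases from the 5′ end of each hairpin on the horizontal axis, 5′ arms in green and 3′ arms in purple. The 5′ arm sits at positions 12 to 32 in both, and the labels give how many bases of each arm are paired in the deposited fold.

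After chilling the abundant sequences of the family, 1 from each arm, differed in direction: the 5′ strand that pairs with laccases had more reads and its chromosome 13 partner on the 3′ arm fewer. miR397a had 1136.5 control and 2070.5 chilled reads. After scaling for depth by TMM (trimmed mean of M values) its log2 ratio of chilled to control, with a pseudocount of 1, was 0.62 (95% counting interval 0.52 to 0.73), or 1.54-fold, which is short of the 2-fold rule used for calls. miR397b-3p had 2459 reads in the control library and 1236 in the chilled one. Its log2 ratio was -1.24 (-1.34 to -1.14), so it was 2.36-fold lower in the chilled library. It was the 1 sequence of the family that met the rule, which asks for a 2-fold difference and at least 10 normalised reads in a library. Under TMM the interval of miR397b-3p lay wholly beyond 2-fold. Scaled to a table total without miR3522, another listed sequence, its log2 ratio was -1.04 (-1.14 to -0.94), so the interval reached inside 2-fold. With unscaled reads its log2 ratio was -0.99 and the call ended. Of the 213 sequences of the series with enough reads, 16.4% were at least 2-fold lower and 14.1% at least 2-fold higher in the chilled library, so a single lower sequence among 2 with enough reads says little about the family. The intervals cover counting error only, since each condition had 1 library, and reads were not counted by molecular identifiers.

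MIR397a-p3 had 9 reads in each library, a log2 ratio of -0.22 (-1.75 to 1.26). It missed the minimum of 10 normalised reads, and so few reads could not show a difference. The tables summed to 3856902 control and 5347700 chilled reads over distinct sequences, of which miR397a made up 295 CPM (reads scaled to a table total of 1000000) under control and 387 CPM under chilled conditions. miR397b-3p made up 638 and 231 CPM and MIR397a-p3 2.33 and 1.68 CPM, in the same order. By mean normalised reads miR397b-3p ranked 33rd, miR397a 38th and MIR397a-p3 200th of the 381 sequences. For miR397a, listed at 2 loci, the CPM and the rank use a single entry. Both may be too low if each entry holds only a share of its reads. In the order of log2 ratios among the 213, miR397a stood 53rd from the top and miR397b-3p 26th from the bottom, within a range from -4.36 to 3.03 and around a median of 0.06.

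**Figure D2:**
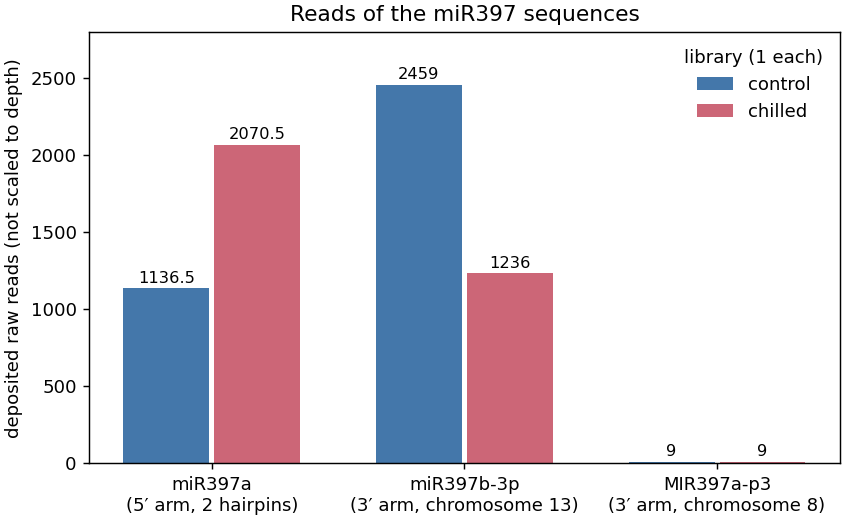
Deposited raw reads, not scaled to depth, of the 3 miR397 sequences in the control (blue) and chilled (red) library, 1 library per bar. miR397a goes from 1136.5 to 2070.5 and miR397b-3p from 2459 to 1236 reads, and MIR397a-p3 has 9 in each.

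The balance of the arms was then compared within each library, where depth scaling does not enter. In the control library the 5′ arm held 31.5% of the 3604.5 family reads (95% Wilson interval 30.0 to 33.1) and in the chilled library 62.4% of 3315.5 (60.8 to 64.1). The more abundant strand was therefore the 3′ arm in the control and the 5′ arm in the chilled library. For the chromosome 13 hairpin the ratio of 5′ to 3′ reads was 0.462 in the control, that is 2.16 reads of the 3′ arm for each read of the 5′ arm, and 1.68 in the chilled library. The ratio was 3.62-fold higher in the chilled library (95% exact conditional interval 3.28 to 4.01, counting error only), a log2 difference of 1.86 (1.71 to 2.0).

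The listed 3′ arms, whose sequences differ, can be assigned to a locus. Of the reads of these listed sequences, 99.6% in the control (Wilson interval 99.3 to 99.8) and 99.3% in the chilled library (98.6 to 99.6) carried the chromosome 13 sequence. Reads with other ends were not counted. miR397a is identical in both hairpins, so its reads cannot be divided between the loci in this way, and the arm ratio sets the reads of one entry of miR397a against the chromosome 13 arm.

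How the authors entered sequences with more than 1 locus bears on the level of miR397a but not on its change. miR397a is listed at 2 loci with the same fractional reads at each. Among the 75 sequences listed at 2 loci, both values were whole for 14 and became whole on multiplying by 2 for 53, at a tolerance of 1e-06, against 220 and 245 of 275 sequences listed at 1 locus. If each entry is a share of the reads, miR397a had 2273 control and 4141 chilled reads. Its share of the family would then be 47.9% in controls (46.5 to 49.4) and 76.9% in the chilled library (75.7 to 78.0). The ratio of all miR397a reads, from either locus, to the chromosome 13 3′ arm would be 0.924 and 3.35. The order of the arms would still differ between the libraries, while the 3.62-fold change of the ratio would be the same.

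Among hairpins of the series with at least 10 normalised reads on both arms, 77 distinct pairs of arms could be compared, some sharing a sequence with another pair. The 5′ to 3′ ratio was at least 2-fold higher in the chilled library for 16 of them, or 20.8%, and at least 2-fold lower for 18. The log2 differences ran from -3.13 to 2.61 around a median of -0.12, and miR397 had the 4th highest. By size regardless of direction it was the 16th of 77. In 6 of the 77 pairs the more abundant arm differed between the libraries, and miR397 was 1 of these 6. With at least 100 normalised reads on both arms 31 pairs remained, miR397 had the 3rd highest difference, and it was 1 of 5 with a change of the more abundant arm.

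The other copper families were set beside it. The family of the miR408a hairpin targets blue copper proteins and laccases in Arabidopsis. That hairpin had a 5′ to 3′ ratio of 1.36 in the control library and 2.60 in the chilled one. Its log2 difference of 0.93 had the same direction, which concerns the arm ratio and not the strand that pairs with targets. Scaled by TMM, the log2 ratio of chilled to control was 0.18 for miR408a-5p and -0.75 for miR408a-3p. The miR398c hairpin, whose family targets copper and zinc superoxide dismutases in Arabidopsis, had ratios of 0.192 and 0.176, a log2 difference of -0.12. miR857, which targets a laccase in Arabidopsis, was listed with 0 sequences.

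**Figure D3:**
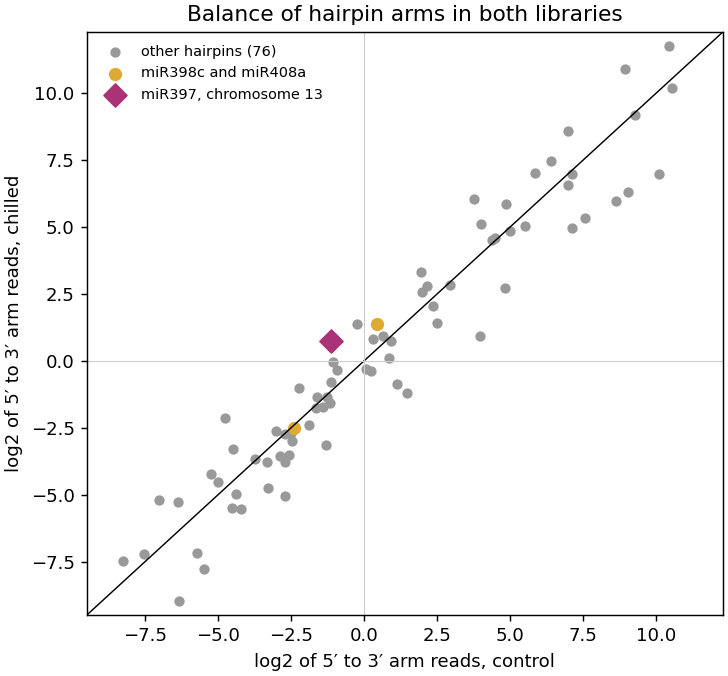
Log2 of the ratio of 5′ to 3′ arm reads in the chilled library (vertical axis) against the control library (horizontal axis) for 77 hairpins, with equality as the diagonal line. The miR397 hairpin (purple diamond) lies at -1.11 in the control library and 0.74 in the chilled one, and the miR408a and miR398c hairpins, counted among the other 76, are in yellow.

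Because the arms lay on opposite sides of 0, the family sum did not describe either of them. It was 3604.5 reads in the control library and 3315.5 in the chilled one, with a log2 ratio of -0.37 (-0.43 to -0.30). Over all entries it came to -0.071 (-0.13 to -0.015), since miR397a then weighs more, so this sum moved with the counting of entries. Over the 5 scalings miR397a lay between 0.39 and 0.86 and miR397b-3p between -1.46 and -0.99, each on its own side of 0.

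**Figure D4:**
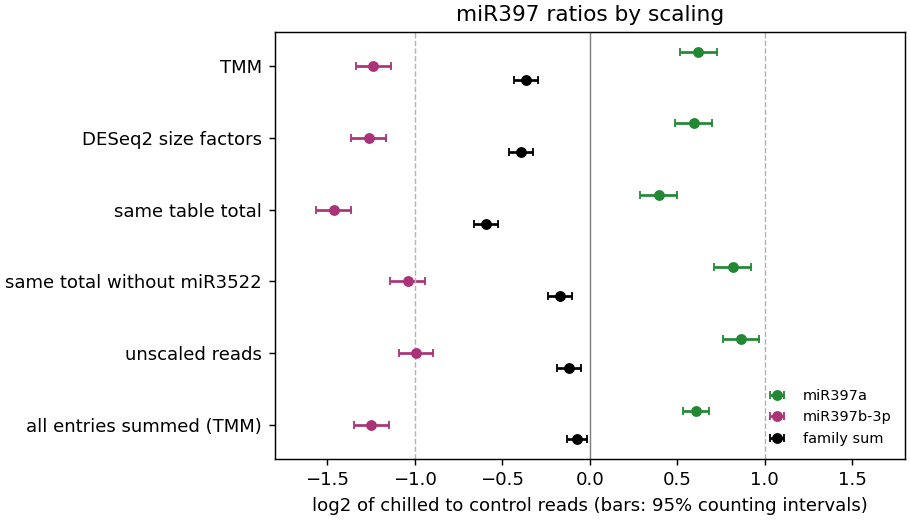
Log2 ratios of chilled to control reads (horizontal axis) for miR397a (green), miR397b-3p (purple) and the family sum (black) under 5 scalings and with all entries summed, with bars for 95% counting intervals and dashed lines at the 2-fold rule. miR397a stays above 0 and miR397b-3p below 0 in each row, while the family sum runs from -0.59 to -0.071.

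In the degradome, the authors' deposited table listed 9 laccase loci for miR397a, 1 transcript each, and 0 pairs for either 3′ arm. The loci shared their abundances in groups of 5, 2 and 2, so they are listed loci and not 9 separate observations of a cut. No laccase was listed for any other family, since all 9 laccase pairs of the table belonged to miR397. By the Arabidopsis symbols that the authors attached, 6 loci were matched to LAC4 (IRX12), a laccase that lignifies xylem vessels and fibres in Arabidopsis stems, 2 to LAC7 and 1 to LAC10.

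The cleavage signal at these laccases was weak in the authors' deposited table. They fell in category 3 (5 loci) or category 4 (4 loci), and 0 in categories 0 to 2, whereas over all pairs 33.1% were in category 0 or 1 and 33.0% in category 3 or 4. Target callers usually give category 0 to a cut site that is the highest of its transcript and category 4 to the weakest. The authors' p-value was under 0.05 for 0 of the 9, against 15.9% of all pairs. By family, 32 of 54 had no pair in category 0 or 1 and 33 had none under 0.05, with miR397 among both. The laccase values are properties of 1 library, in which a low signal at a site and a low level of the transcript cannot be told apart, as transcript levels were not analysed here.

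Among the 6 LAC4 loci of the authors' deposited table, the lowest authors' p was 0.116, at Glyma.03G077900.1. Its listed cut site was position 780 of the transcript, in category 3 with an alignment score of 2.5 (lower is a better match). Glyma.01G112600.1 was listed with a cut at position 748 in category 3, with a score of 3 and an authors' p of 0.334. Glyma.18G065100.1 and Glyma.18G197400.1 were listed at positions 746 and 748 in category 3, each with a score of 2 and an authors' p of 0.468. All 4 had an abundance at the cut site of 27.9 TPB, the authors' normalised unit, which the table does not spell out. Glyma.06G284300.1 and Glyma.12G121700.1, listed at positions 405 and 739, had 11.6 TPB, category 4, a score of 2 and an authors' p of 0.884.

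The LAC10 locus Glyma.07G146000.1 was listed in the authors' deposited table with a cut at position 51, nearest to the start of its transcript among the 9, in category 3 with 27.9 TPB, a score of 2 and an authors' p of 0.468. The LAC7 loci Glyma.07G142400.1 and Glyma.18G193200.1 were listed at positions 757 and 675, in category 4 with 40.7 TPB, a score of 3 and an authors' p of 0.749. Positions differ with the annotated start of each transcript and were not aligned to each other here.

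The 9 loci carried 3 distinct abundances in the authors' deposited table. The value of 27.9 TPB was shared by 5 laccase loci and by 0 other pairs of the table, and 11.6 TPB by the remaining 2 LAC4 loci and 0 other pairs. In units of the smallest abundance in the table, 8.14 TPB, these values are 3.43 and 1.43. Of all 898 abundances, 653 (72.7%) were whole multiples of 8.14 TPB, among them the 40.7 TPB of the LAC7 loci, a value that 54 pairs of the table had. The sources used here do not say how reads matching several transcripts were divided. Because the abundances repeat between loci, the 9 loci cannot be counted as 9 independent observations. Whether they share the same reads was not tested.

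The alignment scores are given beside the categories. All 9 pairs had an alignment score of 3 or less, with a median of 2, against a median of 3 over the table and 64.4% of its pairs at 3 or less. Of the 578 pairs at 3 or less, 41.0% were in category 0 or 1. The laccases' median of 27.9 TPB compared with 50.9 TPB over all pairs, 24.4 TPB in category 3, 13.6 TPB in category 4 and 358 TPB in category 0. Whether TPB also varies with the number of transcripts that a read matches was not tested, so these medians are not a measure of cleavage alone. Of the 54 families in the table, 11 had no pair in categories 0 to 2, miR397 among them, and by its highest abundance miR397 ranked 43rd.

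**Figure D5:**
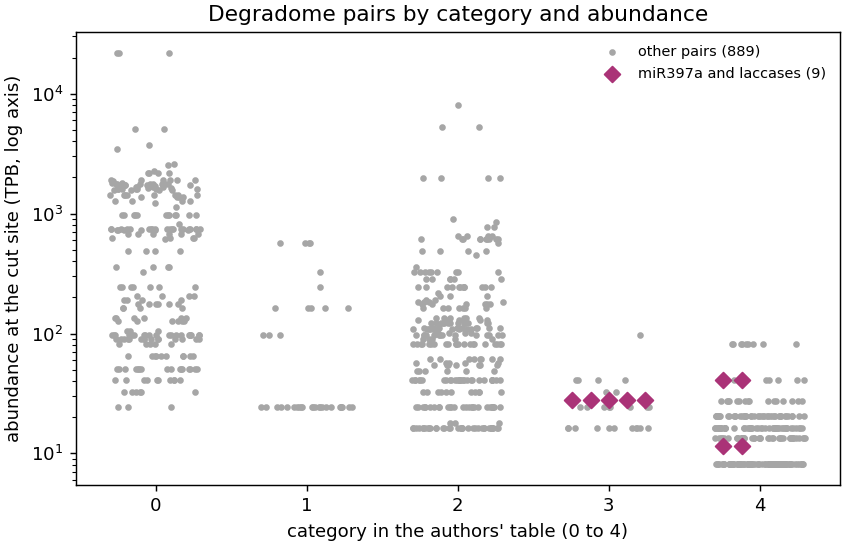
Abundance at the cut site (TPB, log axis) of the 898 pairs in the authors' deposited table by category from 0 to 4, with points spread sideways for legibility. The 9 pairs of miR397a and laccases (purple diamonds) lie in categories 3 and 4 between 11.6 and 40.7 TPB, and the other 889 pairs are in grey.

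Of the other copper miRNAs, miR408 had 0 pairs in the authors' deposited table and miR398 had 2, both with transcripts of a prolyl oligopeptidase locus, Glyma.14G222700, at 244 TPB in categories 0 and 1. No target of any family was annotated as plantacyanin, plastocyanin, cupredoxin or superoxide dismutase. By the gene ontology term for copper ion binding, searched after the values were seen, 14 pairs were found: the 9 laccases and 5 pairs of miR4415a-3p with L-ascorbate oxidases, which like laccases are multicopper oxidases. Those 5 had 358 TPB each, 4 of them in category 0 and 1 in category 2.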

How the data were processed

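Per the labels' protocols, small RNA libraries were made with an Illumina TruSeq kit and sequenced single-end. For trimming, alignment, target calling and the build, no tool is named in the sources used here. Reads per miRNA are raw reads per the file headers; many hold fractions, so the deposited values were handled like estimated counts and rounded for scaling and intervals. The deposited hairpin GC in percent was not used, and MFEI is a score the authors deposited. Degradome TPB is a normalised signal, beside an alignment score, a category and a p-value, all from the authors. A further 6 lines, empty in the copy used, are not analysed here.

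One entry per distinct sequence, the one with the most reads, was kept, and libraries were scaled with edgeR 4.0.16 (TMM, R 4.3.3), by which the chilled factor exceeded the control factor by 0.24 (log2). The scaling and the 2-fold rule were checked on simulated counts with known changes. Alternatives were DESeq2 1.42.0 size factors, table totals with and without miR3522, unscaled reads, a pseudocount of 0.5, other minimums and all entries summed. Ratios have exact conditional binomial intervals. The arm comparison was added after seeing the data. All miR397 sequences and pairs are named, with the copper miRNA families and copper protein targets as a list. Members and lists were chosen with earlier results of these data known.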

Additional observations from a re-analysis of the deposited data

How the results depend on the processing

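The opposite directions of the arms remained under each scaling run, while the sizes moved. With the same table total the log2 ratio was 0.39 for miR397a, -1.46 for miR397b-3p and -0.59 for the family sum; with a total without miR3522 these were 0.82, -1.04 and -0.17, and with unscaled reads 0.86, -0.99 and -0.12. Without scaling miR397b-3p thus missed the 2-fold rule. With all entries summed the family sum was -0.071, and the 5′ arm took 47.9% of control and 76.9% of chilled family reads; these follow from counting miR397a at 2 loci. DESeq2 size factors and a pseudocount of 0.5 moved each ratio by less than its counting interval. The arm ratio of the chromosome 13 hairpin needs no scaling, and its log2 difference was 1.86 also at a minimum of 100 normalised reads and with a pseudocount of 0.5 on scaled reads, both chosen after seeing the data. The number of miR397 sequences that met the 2-fold rule was 1 with no minimum and with a minimum of 100. Of the 9 laccase loci, 0 remained in category 0 or 1 and 0 at an authors' p-value under 0.05. No paired analysis was possible because each condition had 1 library. Depth limits MIR397a-p3, at 9 reads in each library.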
